A study of Mus musculus with 6 samples.

Results

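Interferon-stimulated genes are described here in leukemia cells with and without Ddit4. The 39 genes were chosen by symbol as well-known members of the interferon response, out of 55421 genes in the deposited count table. The rule uses no measured values, but the list was chosen with earlier results of these data known. Leukemia cells were taken from mouse bone marrow (strain C57BL/6), in 3 AE9a-Ddit4-/- (knockout) and 3 AE9a-Ddit4+/+ (wild-type) libraries. In both groups c-Kit+ stem and progenitor cells from young adult Ddit4-/- or Ddit4+/+ donors had received AML1-ETO9a (AE9a), a shortened leukemia fusion protein, from a retrovirus that also marks cells with GFP, and GFP+ cells were transplanted into irradiated mice. AE9a expression is therefore driven by the virus and not by the gene's own promoter, and no group without AE9a was part of the comparison. Ddit4 encodes a stress-induced inhibitor of mTORC1 signaling. The study gives bone marrow of transplanted mice as the source of the cells, with as many per group as there are libraries. Neither it nor the labels say whether each library came from a mouse of its own or from a leukemia that arose separately. In the study's primary transplants, fewer knockout recipients developed leukemia in the time observed than there are knockout libraries. Knockout libraries from that cohort therefore cannot all stem from leukemias that arose separately. So n counts libraries, and p values measure the spread between them, which may be technical.

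Type I interferons bind the receptor pair Ifnar1 and Ifnar2, whose kinases Tyk2 and Jak1 phosphorylate STAT proteins such as Stat2. Together with Irf9 these form ISGF3, which binds the interferon-stimulated response element (ISRE), while interferon gamma acts at the gamma-activated site (GAS) and through Irf1. The induced genes sense viral RNA, block translation, degrade RNA, trap virus particles or restrain the response itself, and several are also expressed at a basal level in blood cells without infection.

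RefSeq promoter windows (GRCm38.p6, 250 bases before to 50 after each annotated start) were matched by symbol for 29 of the 39 genes. The ISRE core, searched as GAAANNGAAA and on the other strand as TTTCNNTTTC, was present in a window of 16 of these 29 genes (55.2%), against 3.99% of 27025 genes and 3.44% of 32851 windows in the table. The GAS core TTCNNNGAA, which reads the same on both strands, was present for 8 of the 29 (27.6%), against 9.55% of all genes and 8.30% of all windows. The ISRE core was found for 3 of the 6 matched genes that were higher in AE9a-Ddit4-/- leukemia, for 1 of the 5 that were lower, and for 12 of the 17 that did not pass the test, beside Ifi44, which was matched but not tested and lacked the core. The stretches below are those of the genes past the threshold with an ISRE core. They are shown 5' to 3' along the gene's strand, because they carry the same core while their genes moved in opposite directions, and capitals mark the core.
Rsad2, chr12:26456538-26456597, minus strand: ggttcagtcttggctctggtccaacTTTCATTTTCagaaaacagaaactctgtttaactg
Gbp2, chr3:142620579-142620638, plus strand: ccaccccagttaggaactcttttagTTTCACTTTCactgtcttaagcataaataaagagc
Trim30a, chr7:104465195-104465254, minus strand: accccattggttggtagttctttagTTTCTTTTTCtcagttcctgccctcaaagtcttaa
Ifih1, chr2:62646206-62646233, minus strand: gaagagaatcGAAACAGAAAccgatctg
The core began 120 bases before the annotated start in Rsad2, 59 before it in Gbp2 and 36 before it in Trim30a, and 32 bases after it in Ifih1. Trim30a has another annotated start, not shown, where a core began 2 bases after the start. No ISRE core was found in the windows of Oasl1, Oasl2, Ifit2, Isg20, Irf9, Irf1, Xaf1 and Cmpk2. A match is a match of letters and no measure of binding, and these windows are short.

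The Ddit4 gene was examined first. Its level was 228, 161 and 342 CPM (counts per 1000000 counts of the library, scaled by TMM factors) in wild-type libraries 1 to 3 and 84.9, 77.7 and 85.9 CPM in knockout libraries 1 to 3. Every knockout library lay below every wild-type library, but reads remained (log2 fold change -1.56, SE 0.28, edgeR adjusted p = 0.00635). These are RNA levels, and by western blot the study found DDIT4 protein to be completely missing from knockout leukemia cells. Which part of the gene the allele lacks is not given in the sources used here. Each fold change is given as knockout over wild type, and genes with an edgeR adjusted p below 0.05 over all 18375 genes tested are said to have passed the threshold. Gene positions below are on GRCm38.

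The 6 libraries held 62141558 to 72717681 counts, and mitochondrial genes took 5.03 to 7.9% of them in wild-type and 11.3 to 16.4% in knockout libraries. Fixed marker lists of other cells differed between the groups. Summed T and NK cell markers were at 11.0 to 48.8 CPM in wild-type and 111 to 146 CPM in knockout libraries (10 of 11 tested higher), and B cell markers at 1.05 to 4.91 and 64.6 to 128 CPM (6 of 7). Erythroid markers were at 5071 to 10523 and 78.1 to 411 CPM (6 of 6 lower) and neutrophil markers at 6766 to 10806 and 1419 to 4596 CPM (5 of 8 lower). Megakaryocyte markers (5 of 6) and endothelial and stromal markers (6 of 8) were higher in knockout libraries. Markers of plasmacytoid dendritic cells (2 of 5, at 4.56 to 12.7 and 58.6 to 79.3 CPM), classical dendritic cells (4 of 6, at 22 to 55.5 and 105 to 162 CPM) and of monocytes and macrophages (3 of 10, at 189 to 372 and 178 to 534 CPM) were higher in part and lower in none. At or under the detection floor of 12 counts in every wild-type library were 6 of the 12 T and NK cell markers and 3 of the 8 B cell markers, against 1 and 0 in knockout libraries. Markers this low in wild-type libraries could reach the test only through the knockout group. The counts of higher T and NK and B cell markers were thus partly set by the filter. For the 6 plasmacytoid dendritic cell markers this held for 2 in wild-type and 1 in knockout libraries. The labelled cell type was checked with 6 genes of immature myeloid leukemia (4 higher). Mean levels of Kit and Cd34, defining surface proteins of immature cells, were 24.7 and 5.92 CPM in wild-type but 411 and 519 CPM in knockout libraries. Runx1t1, the mouse ETO gene, was at 6.47, 11.1 and 18.1 CPM and at 206, 141 and 69.9 CPM (log2 fold change 3.55, edgeR adjusted p = 0.00295). Ptprc was also higher (2.43, 0.00416), while Spi1 (-0.56, 0.116) and Cebpa (0.77, 0.29) did not pass. Ddx3y, a Y-linked gene, was at 0.0589 to 0.0774 CPM in wild-type and 88.2 to 125 CPM in knockout libraries. Xist, an RNA of the inactive X chromosome, was at 1032, 566 and 884 CPM and at 63.2, 20.3 and 129 CPM. It was thus lower but not absent in knockout libraries. The study lists the C57BL/6 mice it purchased as female and gives no sex for the Ddit4-/- donors. Whether the knockout libraries hold cells of both sexes was not tested, and sex of the cells and genotype cannot be told apart. In bulk libraries, fewer cells of a type and less RNA per cell cannot be told apart either, and the part of these differences in the results below was not tested.

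Among the interferon-stimulated genes, 38 of 39 were tested, and they differed between the genotypes in both directions. Of the 38, 10 were higher (26.3%) and 5 lower (13.2%) in AE9a-Ddit4-/- leukemia, where 19.4% of all genes tested were higher and 10.7% lower. The remaining 23 did not pass the threshold, and 19 of the 38 had an unadjusted p below 0.05. All 3 knockout libraries lay above all 3 wild-type libraries for 13 genes (34.2%, against 27.9% of all genes tested) and below them for 6 (15.8%, against 22.2%). The groups overlapped for the other 19. The shares are near those of the whole transcriptome, so the counts alone do not set the list apart. The median log2 fold change was 0.64, against 0.04 over all genes tested, with a range from -2.05 (Oasl1) to 3.85 (Rsad2). Summed over the 38 genes, the level was 685, 726 and 738 CPM in the wild-type and 1120, 849 and 951 CPM in the knockout libraries. The excluded gene was Ifi44, with 9 counts in wild-type library 1 and 0 in the other libraries.

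**Figure D1:**
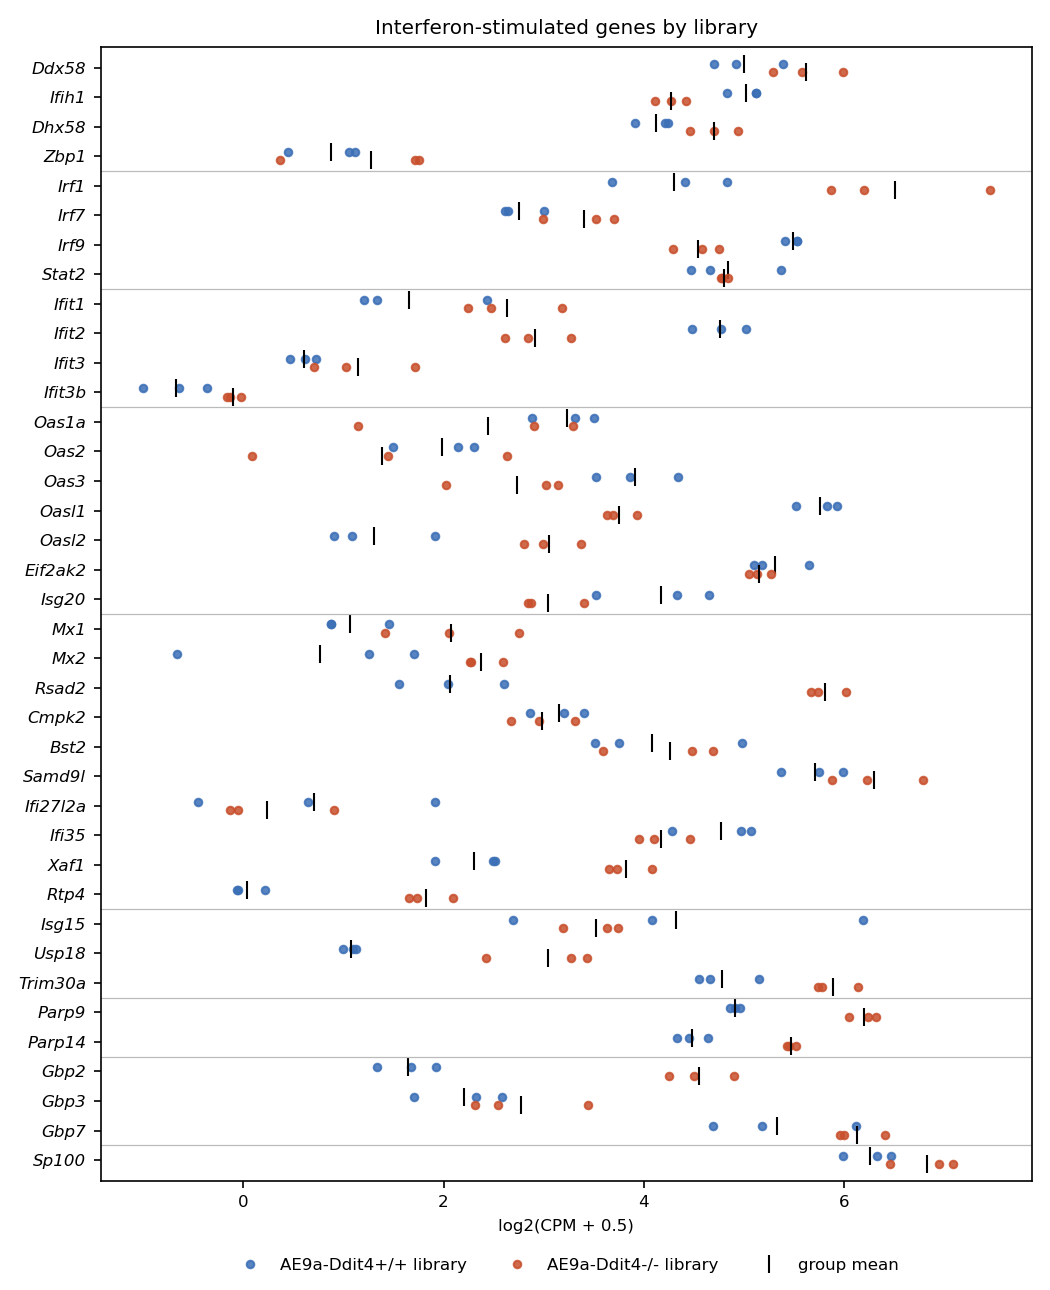
Level of the 38 genes tested in each library, on the horizontal axis as log2(CPM + 0.5), grouped by role with grey lines between roles. Points are libraries (blue AE9a-Ddit4+/+, red AE9a-Ddit4-/-, n = 3 each) and black ticks are group means. Red points lie to the right of all blue points for 13 genes, such as Rsad2 and Gbp2, and to the left for 6, such as Oasl1 and Ifit2.

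Among the sensors of viral nucleic acid, 1 of 4 passed the threshold. Ifih1 (MDA5, chr2:62595798-62646255, minus strand), the cytosolic sensor of long double-stranded RNA, was lower. Its level was 34.3, 34.4 and 27.9 CPM in wild-type and 18.8, 16.8 and 21.0 CPM in knockout libraries (means 32.2 ± 3.75 and 18.9 ± 2.11, SD, n = 3 each). The groups did not overlap (log2 fold change -0.77, SE 0.22, edgeR adjusted p = 0.0322). This call was lost when any single library was left out, with adjusted p from 0.0504 without knockout library 3 to 0.0938 without wild-type library 1. Ddx58 (RIG-I), which binds short RNA with a 5' triphosphate, had a log2 fold change of 0.62 (adjusted p = 0.128) with overlapping groups. Dhx58 (LGP2), a regulator of both sensors, was at 14.6 to 18.4 CPM in wild-type and 21.5 to 30.3 CPM in knockout libraries, with no overlap but an adjusted p of 0.0982. Zbp1, a sensor of Z-form nucleic acid that can start necroptosis, was low in both groups (1.37 ± 0.437 and 2.15 ± 1.17 CPM).

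Of the transcription factors, Irf1 rose and Irf9 fell. Irf1 (chr11:53770014-53778374, plus strand), which activates many interferon gamma genes, was at 12.3, 27.9 and 20.8 CPM in wild-type and 175, 73.0 and 57.9 CPM in knockout libraries. All knockout libraries were above all wild-type libraries, and knockout library 1 stood highest, so the knockout spread was wide (102 ± 63.9 against 20.3 ± 7.84 CPM). This gave a log2 fold change of 2.33 with an SE of 0.49 (edgeR adjusted p = 0.0114). Irf9 (chr14:55603571-55610030, plus strand), the DNA-binding part of ISGF3, was at 41.9, 45.8 and 45.8 CPM in wild-type and 26.5, 19.1 and 23.5 CPM in knockout libraries. Its groups were tight and apart (44.5 ± 2.26 and 23.0 ± 3.72 CPM, log2 fold change -0.95, SE 0.21, edgeR adjusted p = 0.0124). Stat2, its partner, had a log2 fold change of -0.09 (adjusted p = 0.829), and Irf7, the factor that amplifies type I interferon production, one of 0.71 (adjusted p = 0.142).

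The IFIT proteins bind viral RNA that lacks the cap marks of the host. Ifit2 (chr19:34550694-34576419, plus strand) was the one family member past the threshold, and it was lower. It measured 21.8, 32.0 and 26.8 CPM in wild-type and 6.68, 5.63 and 9.16 CPM in knockout libraries. The highest knockout library lay below the lowest wild-type library (means 26.9 ± 5.10 and 7.16 ± 1.81 CPM, log2 fold change -1.91, SE 0.30, edgeR adjusted p = 0.00347). Ifit1, Ifit3 and Ifit3b, the other members at the same locus on chromosome 19, had positive log2 fold changes of 1.04, 0.83 and 1.60 with adjusted p of 0.175, 0.245 and 0.298. All were low, with Ifit1 at 2.90 ± 1.72 and 5.96 ± 2.32 CPM and Ifit3b below 0.5 CPM in each library. Ifit3 and Ifit3b share 18.5% and 16% of their 150-base windows with each other, so reads of this pair could be split between them and both are uncertain.

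The 2'-5' oligoadenylate synthetase (OAS) family senses double-stranded RNA and activates RNase L, and it held the strongest decrease. Oasl1 (chr5:114923240-114937915, plus strand), which represses Irf7 translation and lacks synthetase activity, was at 56.3, 45.4 and 60.5 CPM in wild-type and 11.9, 12.4 and 14.8 CPM in knockout libraries. The groups lay far apart (54.1 ± 7.75 and 13 ± 1.59 CPM, log2 fold change -2.05, SE 0.22, edgeR adjusted p = 0.000898). Its neighbour Oasl2, 11005 bases away on chromosome 5 with no protein-coding gene between, went the other way. Oasl2 (chr5:114896936-114912234, plus strand) was at 3.26, 1.62 and 1.38 CPM in wild-type and 6.49, 7.49 and 9.84 CPM in knockout libraries. Its groups did not overlap either (2.09 ± 1.02 and 7.94 ± 1.72 CPM, log2 fold change 1.93, SE 0.45, edgeR adjusted p = 0.0168), but the call was lost without wild-type library 3 (0.0561) or knockout library 3 (0.0599). Isg20 (chr7:78913424-78920396, plus strand), an exonuclease that degrades RNA, was at 24.6, 11.0 and 19.7 CPM in wild-type and 6.81, 6.70 and 10.1 CPM in knockout libraries. All knockout libraries were lower, with little distance to wild-type library 2 (log2 fold change -1.23, SE 0.37, edgeR adjusted p = 0.0424). The call held with wild-type library 2 left out, but not with any other single library left out (adjusted p from 0.0532 without knockout library 3 to 0.134 without wild-type library 1).

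The other OAS and RNA control genes did not pass the threshold. Oas3, the synthetase of long oligoadenylates, was at 11.0 to 19.8 CPM in wild-type and 3.56 to 8.35 CPM in knockout libraries. It lay lower in every knockout library (log2 fold change -1.20, edgeR adjusted p = 0.0655), and it passed with DESeq2 (0.0214) and with voom (0.0462). Oas1a had a log2 fold change of -0.59 and shares 32.4% of its windows with Oas1g, so its count is uncertain. Oas2 was at -0.33, and both overlapped between the groups. Eif2ak2 (PKR), the kinase that halts translation, was close in both groups (39.8 ± 8.66 and 35.1 ± 2.86 CPM, log2 fold change -0.18, adjusted p = 0.571).

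Antiviral effectors held the strongest increase, with 3 of 10 tested higher (30%, against 19.4% of all genes tested) and none lower. Rsad2 (viperin, chr12:26442746-26456452, minus strand), an enzyme that makes a chain-terminating nucleotide, was at 3.64, 2.43 and 5.56 CPM in wild-type and 50.4, 53.1 and 64.4 CPM in knockout libraries. The lowest knockout library was far above the highest wild-type library (3.88 ± 1.58 and 56.0 ± 7.41 CPM, log2 fold change 3.85, SE 0.35, edgeR adjusted p = 0.000577). Cmpk2, the nucleotide kinase that lies 12751 bases from Rsad2 on the other strand of chromosome 12 and supplies its substrate, was at 8.69, 10.1 and 6.79 CPM and at 5.88, 7.23 and 9.46 CPM. Its groups overlapped (log2 fold change -0.18, SE 0.33, adjusted p = 0.715). Rtp4 (chr16:23520291-23614222, plus strand), a chaperone of membrane receptors, was low but apart, with 0.459, 0.663 and 0.464 CPM in wild-type and 3.77, 2.83 and 2.66 CPM in knockout libraries (change of 2.54 on the log2 scale, SE 0.44, edgeR adjusted p = 0.00518). Xaf1 (chr11:72301629-72313733, plus strand), which counters the caspase inhibitor XIAP, was at 5.13, 5.20 and 3.28 CPM and at 16.4, 12.1 and 12.8 CPM. Again no knockout library fell into the wild-type range (4.54 ± 1.09 and 13.8 ± 2.33 CPM, log2 fold change 1.60, SE 0.33, edgeR adjusted p = 0.00997). In Rtp4, 13.9% of the exonic bases are shared with another transcript on the same strand, Gm45338, which had 0 counts.

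The other effectors gave wide or small differences. Mx1 and Mx2, dynamin-like GTPases that block virus replication, had log2 fold changes of 1.30 (adjusted p = 0.0960) and 1.57 (0.217). Both stayed below 7 CPM in each library, and the annotation lists Mx2 as a polymorphic pseudogene. Samd9l, a growth and translation inhibitor, was at 41.0 to 63.1 and 58.5 to 110 CPM (log2 fold change 0.63, adjusted p = 0.137). Bst2 (tetherin), which holds budding virus at the cell surface, was at 10.9 to 31.2 and 11.6 to 25.4 CPM (0.10, 0.898). Ifi35 and Ifi27l2a had negative log2 fold changes of -0.64 and -1.02 with overlapping groups.

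In the ISG15 system the modifier and its protease did not move together. Isg15, a ubiquitin-like protein joined to other proteins after interferon, was at 16.4, 5.95 and 72.3 CPM in wild-type and 12.9, 11.9 and 8.67 CPM in knockout libraries. Wild-type library 3 was far above the rest and library 2 was below all knockout libraries, so the groups overlapped (31.6 ± 35.7 and 11.2 ± 2.21 CPM, log2 fold change -1.50, SE 0.80, adjusted p = 0.195). Over the alternatives run its log2 fold change went from -1.99 to -0.01, and it passed in 1 fit, without wild-type library 2 (adjusted p = 0.0385). Usp18 (chr6:121245906-121270917, plus strand), which removes Isg15 and blocks the receptor subunit Ifnar2, was at 1.49, 1.68 and 1.64 CPM in wild-type and 4.85, 9.20 and 10.3 CPM in knockout libraries. The wild-type libraries were close together and all knockout libraries higher (1.60 ± 0.101 and 8.10 ± 2.86 CPM, log2 fold change 2.34, SE 0.41, edgeR adjusted p = 0.00562). Trim30a (chr7:104409025-104465193, minus strand), a ubiquitin ligase that dampens Toll-like receptor signaling, was at 22.9, 35 and 24.8 CPM and at 70.1, 54.4 and 53.0 CPM. It rose without overlap (log2 fold change 1.10, SE 0.24, edgeR adjusted p = 0.0126), although leaving out wild-type library 3 gave 0.0525.

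Both genes of the PARP family, named for ADP-ribose transfer, were higher, with little spread within the groups. Parp9 (chr16:35938470-35972605, plus strand) was at 30.6, 28.6 and 29.6 CPM in wild-type and 74.9, 79.6 and 65.8 CPM in knockout libraries. Every knockout library was clearly above (29.6 ± 0.960 and 73.4 ± 7.01 CPM, log2 fold change 1.31, SE 0.18, edgeR adjusted p = 0.00216). Parp14 (chr16:35832874-35871544, minus strand) was at 21.4, 24.5 and 19.7 CPM and at 43.2, 45.3 and 42.7 CPM. It was apart in the same way (21.9 ± 2.44 and 43.7 ± 1.37 CPM, log2 fold change 1.0, SE 0.19, edgeR adjusted p = 0.00800). Dtx3l, the ubiquitin ligase partner of Parp9, overlaps it on the other strand at 9.40% of the exonic bases of Parp9 and rose as well (28 ± 7.41 and 84.0 ± 15.3 CPM, log2 fold change 1.58, edgeR adjusted p = 0.00449). The use of strand in counting is not given, so reads in the overlap cannot be told apart.

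Guanylate-binding proteins (GBP) attack the membranes of vacuoles that hold microbes, and they follow interferon gamma. Gbp2 (chr3:142620602-142638008, plus strand) was at 2.03, 3.30 and 2.69 CPM in wild-type and 29.3, 18.6 and 22.2 CPM in knockout libraries. The groups were far apart (2.67 ± 0.637 and 23.4 ± 5.46 CPM, log2 fold change 3.13, SE 0.34, edgeR adjusted p = 0.000905). Gbp3 and Gbp7, within the same cluster on chromosome 3, had log2 fold changes of 0.67 (adjusted p = 0.313) and 0.69 (0.199) with overlapping groups. Gbp7 was at 25.3, 69.0 and 35.8 CPM in wild-type and 84.6, 61.9 and 63.6 CPM in knockout libraries, so wild-type library 2 reached into the knockout range, and it passed when that library was left out (0.0170). Sp100, a nuclear body protein, was at 62.9 to 88.0 and 87.3 to 136 CPM (0.59, 0.0947).

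**Figure D2:**
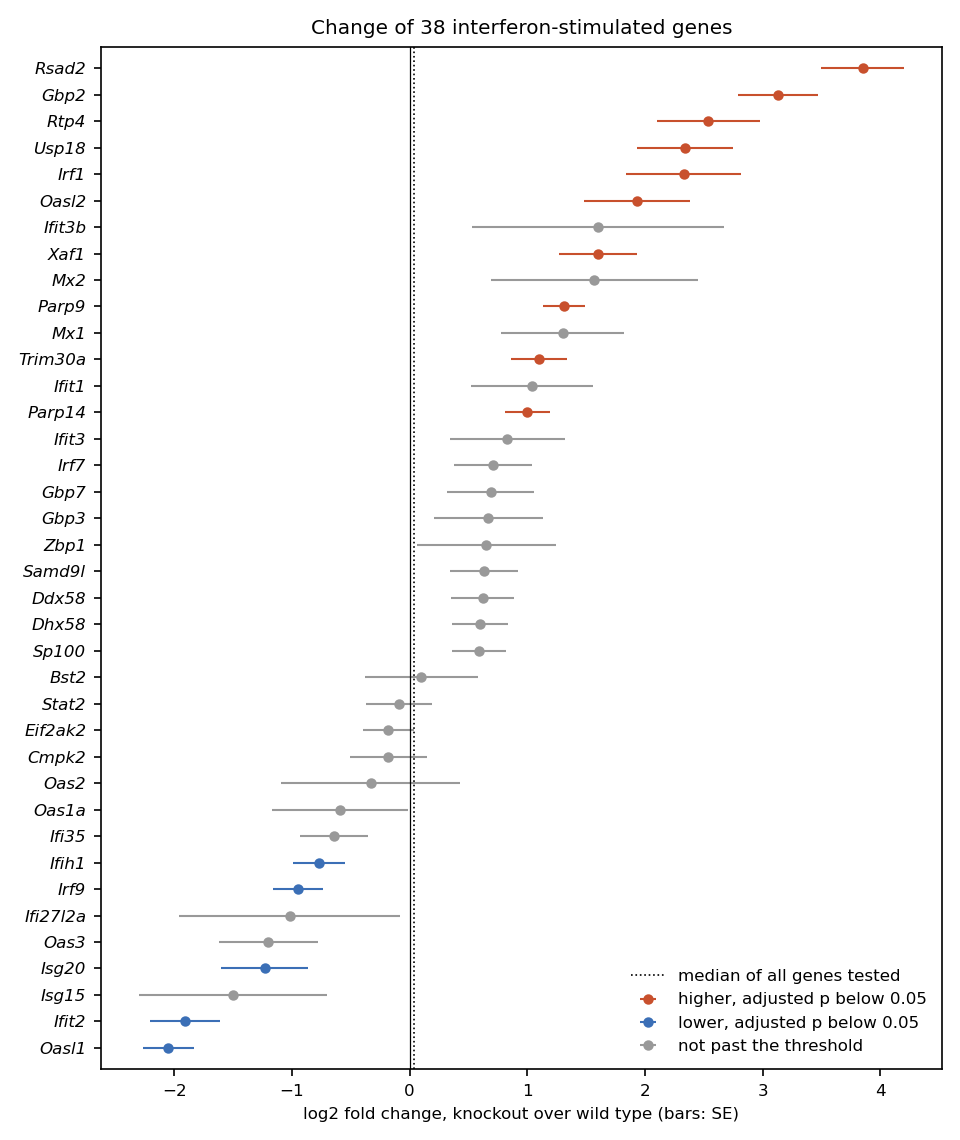
Log2 fold change, knockout over wild type, of the 38 genes tested with edgeR, with SE as bars and the genes in order of size. Red genes (10) were higher and blue genes (5) lower with an adjusted p below 0.05, grey genes (23) did not pass, and the dotted line is the median of all genes tested (0.04).

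Of the 15 calls, 9 held in all 15 alternative fits, namely Rsad2, Gbp2, Rtp4, Usp18, Xaf1, Parp9, Parp14, Oasl1 and Ifit2. The 10 genes that rose summed to 115 ± 14.6 CPM in the wild type and to 391 ± 73.2 CPM in knockout libraries, and the 5 that fell to 176 ± 6.49 and 70.0 ± 9.01 CPM (SD, n = 3 each). These sums follow from the choice of called genes and are given for their size. Per length (FPKM, CPM per 1000 bases of exons), the wild-type order was led by Isg15 (41.8 ± 47.2), Oasl1 (20.7 ± 2.97), Bst2 (20.3 ± 12.4) and Ifi35 (16 ± 4.41), which did not differ from their neighbours beyond their spread. In knockout libraries the order was led by Irf1 (25.7 ± 16.1), Bst2 (21.7 ± 7.96), Sp100 (15.3 ± 3.35), Parp9 (15.1 ± 1.44) and Samd9l (14.9 ± 4.89), again within the spread of their neighbours. Rsad2 went from rank 29 to rank 8 in FPKM and Irf1 from rank 15 to rank 1. Oasl1 went from rank 2 to rank 15 and Ifit2 from rank 11 to rank 27. Above 1 FPKM were 27 of the 39 genes in wild-type and 34 in knockout libraries.

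Neighbouring or related genes were also set against each other within each library, which removes the scaling of the library. The 13 pairs were chosen after their values were seen, so the ratios are a description with no test. The log2 ratio of Rsad2 to Cmpk2 (each as CPM + 0.5) was -1.15, -1.85 and -0.27 in wild-type and 3.0, 2.79 and 2.70 in knockout libraries, so the ratio changed sign. The log2 ratio of Oasl2 to Oasl1 was -3.92, -4.44 and -5.02 in wild-type and -0.82, -0.69 and -0.57 in knockout libraries. This ratio stayed negative in every library and did not overlap between the groups. For Ifit1 to Ifit2 the log2 ratios were -3.28, -3.69 and -2.34 against -0.60, -0.15 and -0.09. The ratio of Irf1 to Irf9 changed sign as well, with a mean log2 ratio of -1.19 ± 0.52 in wild-type and 1.97 ± 0.71 in knockout libraries. Parp9 to Parp14 moved least (0.43 ± 0.19 and 0.74 ± 0.10), and the ratios of Oas2 and of Oas1a to Oas3 overlapped between the groups.

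**Figure D3:**
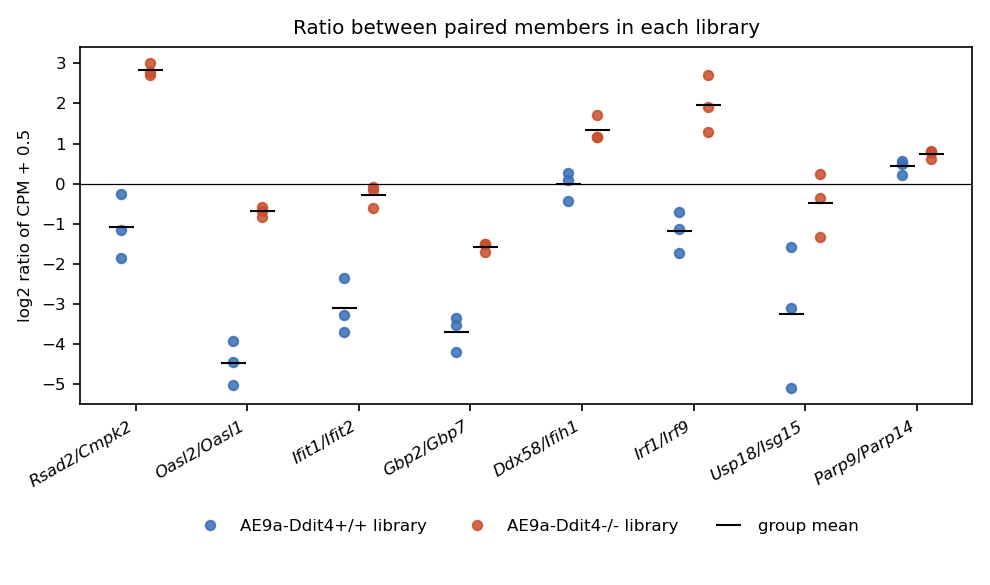
Log2 ratio between 2 genes of a pair in each library, computed from CPM + 0.5. Points are libraries (blue AE9a-Ddit4+/+, red AE9a-Ddit4-/-, n = 3 each) and bars are group means. Knockout libraries lie above wild-type libraries for the 8 pairs drawn, with the widest gap for Rsad2/Cmpk2 (difference of means 3.92) and the narrowest for Parp9/Parp14 (0.30).

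The rest of the interferon pathway was read from a list of 148 further genes, of which 119 were tested. Of these, 31 were higher (26.1%, against 19.4% of all genes tested) and 6 lower (5.04%, against 10.7%). The median log2 fold change was 0.32, against 0.04 over all genes tested. Among 21 ligand genes 2 were tested. Ifng, the gene of interferon gamma that T and NK cells produce, had 0, 29 and 4 counts in wild-type and 344, 152 and 563 counts in knockout libraries. It was higher in every knockout library (0.163 ± 0.231 and 5.23 ± 2.59 CPM, log2 fold change 4.98, SE 1.24, edgeR adjusted p = 0.0211). Most T and NK cell markers given above were higher as well, but many of these could pass the filter only through the knockout group. Ifng passed the filter through the knockout group alone and was called in 10 of the 14 alternative fits that tested it. Ifnb1, the gene of interferon beta, had at most 48 counts (wild-type library 2) and was not tested, and of the other ligand genes not tested none had more than 5 counts in a library. Markers of plasmacytoid dendritic cells, the main source of interferon alpha, differed among themselves. Pacsin1 (log2 fold change 7.57, edgeR adjusted p = 0.00386) and Tcf4 (3.85, 0.00281) were higher, and Siglech (-0.73, 0.736), Ccr9 (-1.76, 0.107) and Cox6a2 (1.47, 0.0925) did not pass. Pacsin1 was at 0, 0.162 and 0 CPM in wild-type and 8.67, 13.2 and 10.7 CPM in knockout libraries. Like Ifng, it passed the filter through the knockout group alone. The part of such cells in the results was not tested.

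Of the receptors, 1 of 6 passed the threshold. Ifnar1 was at 56.5, 66.3 and 45.8 CPM in wild-type and 141, 138 and 101 CPM in knockout libraries. No knockout library was as low as a wild-type one (log2 fold change 1.17, SE 0.22, edgeR adjusted p = 0.00744). Ifnar2, the other chain of the receptor, had a log2 fold change of 0.14 (adjusted p = 0.646), and Ifngr2 and Il10rb, which lie at the same locus on chromosome 16, had 0.19 and 0.16. Tyk2, the kinase bound to Ifnar1, was higher (87.3 ± 13 and 154 ± 28.1 CPM, log2 fold change 0.82, edgeR adjusted p = 0.0232), and Jak2, which serves the interferon gamma receptor, was lower (242 ± 38.1 and 134 ± 19.4 CPM, -0.85, 0.0168). Jak1 had -0.45 (0.108).

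Of 10 inhibitors, Socs1 and Ptpn6 were higher (20%, against 19.4% of all genes tested). Socs1, which blocks JAK kinases, went from 3.13 ± 0.732 to 12.6 ± 3.91 CPM (log2 fold change 2.0, edgeR adjusted p = 0.00720), and Ptpn6, the phosphatase SHP-1, had 0.94 (0.0202). Among the other interferon regulatory factors 2 of 6 were higher (33.3%, against 19.4% of all genes tested). Irf4 (3.10, 0.0115), which serves lymphoid cells, was among them. Irf3, which starts interferon production after a sensor has fired, had -0.16 (adjusted p = 0.670). Of 16 other sensors and adaptors tested, 4 were higher (25%, against 19.4% of all genes tested). These were Tlr7 (2.21, 0.0196) and Tlr9 (1.71, 0.0430), endosomal sensors of RNA and DNA, Aim2 (2.20, 0.00857), the inflammasome sensor of DNA, and Tmem173 (1.22, 0.0388), the adaptor STING.

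Interferon-inducible GTPases beside the 3 GBP genes above were higher in 4 of 11 cases (36.4%, against 19.4% of all genes tested) and lower in none. These were Gbp4, Gbp6, Gbp8 and Gbp9, all in the second GBP cluster, on chromosome 5. The annotated spans of Gbp4, Gbp8 and Gbp9 overlap on 1 strand, so their counts are uncertain and may not be separate. Gbp9 was at 0.348, 2.17 and 0.495 CPM in wild-type and 33.0, 9.25 and 23.0 CPM in knockout libraries, so knockout library 2 was the lowest of its group. Gbp9 (log2 fold change 4.43, SE 0.85, edgeR adjusted p = 0.00794) was called in 15 of 15 alternative fits. Gbp4, Gbp6 and Gbp8 reached the test through the knockout group alone. Gbp4 had 3, 37 and 0 counts in wild-type and 699, 225 and 699 counts in knockout libraries, and Gbp6 had 0, 14 and 0 against 191, 49 and 323. Gbp4 and Gbp8 were called in 10 and Gbp6 in 9 of 14 alternative fits, so their calls depend on the fit.

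A last group of 63 further inducible genes had 16 higher (25.4%, against 19.4% of all genes tested) and 5 lower (7.94%, against 10.7%). The largest increases were those of Ccl5, a chemokine of T and NK cells (log2 fold change 5.90, edgeR adjusted p = 0.000547), Tnfsf10, the death ligand TRAIL (4.21, 0.000265), Nlrc5, the activator of MHC class I genes (4.08, 0.00218), Ifitm1 (3.68, 0.0146), Mndal (3.63, 0.00153) and Ddx60 (3.15, 0.00322). The 5 that fell were Ube2l6, the enzyme that loads Isg15 onto its targets (-2.38, 0.00694), Cxcl10, a chemokine (-1.78, 0.0410), Oas1c (-1.76, 0.0276), Pml, the core of PML nuclear bodies (-1.19, 0.00713), and Nmi, the partner of Ifi35 (-1.03, 0.0400). Ube2l6 was at 32.3, 89.6 and 102 CPM in wild-type and 17.2, 15 and 10.7 CPM in knockout libraries. Thus within the ISG15 system the protease Usp18 was higher, the conjugating enzyme Ube2l6 lower, and Isg15 itself did not pass.

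**Figure D4:**
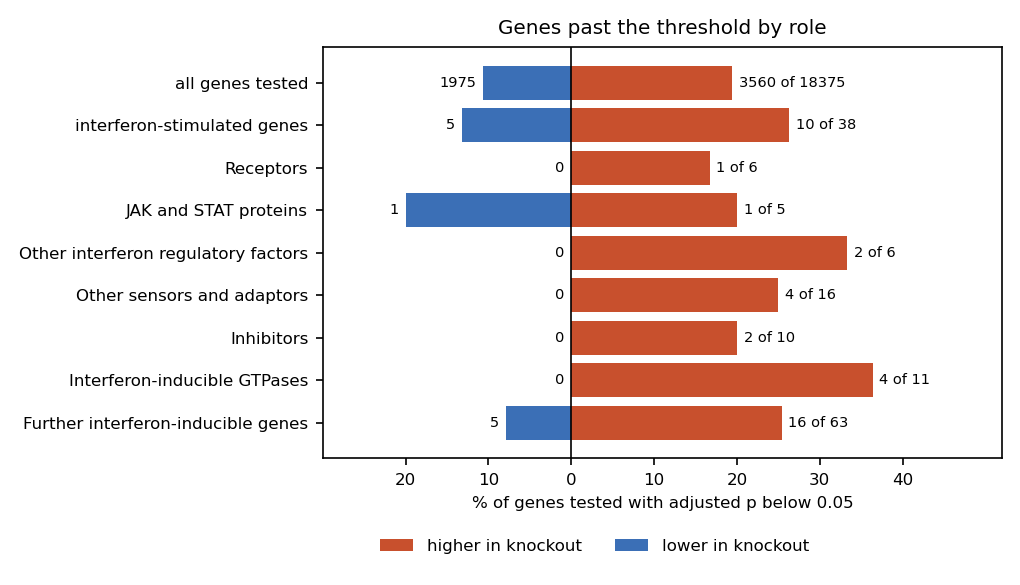
Share of the genes tested that were higher (red, to the right) or lower (blue, to the left) in knockout libraries with an edgeR adjusted p below 0.05, for all genes, the interferon-stimulated genes and each role of the pathway list apart from the ligands. Numbers beside the bars are gene counts. The interferon-stimulated genes had 10 of 38 higher and 5 lower, against 3560 of 18375 higher and 1975 lower over all genes.

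Position in the genome was examined because levels shifted over whole chromosomes. For the 8218 genes whose mean log2 CPM exceeded 4, the log2 fold change had a median of -0.17. On chromosome 16 the median was 0.25, on chromosome 15 it was 0.39, and chromosome 1 had 0.23. Chromosome 16 holds 5 of the 38 genes (Rtp4, Parp9, Parp14, Mx1 and Mx2), with 3 higher and a median log2 fold change of 1.31, and also Ifnar1, Socs1 and Dtx3l. The fold changes of Ifnar2 (0.14), Ifngr2 (0.19) and Il10rb (0.16) were close to that chromosome's median, whereas those of Parp9 (1.31) and Ifnar1 (1.17) were above it. Outside chromosomes 1, 15 and 16, 7 of 32 genes were higher and 5 lower, with a median of 0.61. Over all genes tested, on all chromosomes, 19.4% were higher and 10.7% lower, so these counts do not set the genes apart. The part of these chromosome-wide shifts in the changes of single genes was not tested.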

How the data were processed

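RNA-seq libraries of AE9a-Ddit4-/- and AE9a-Ddit4+/+ leukemia cells (n = 3 each, groups from the sample titles) were compared. The authors deposited 1 table of raw counts per gene. The submitters' processing notes name the builds GRCm38 and mm10. The aligner, counting tool and strand setting are not given in the sources used here, and the methods and labels name different library kits. Multiples of 4 were over-represented among low counts (4, 8 and 12 outnumbered 2, 6 and 10 by a factor of 1.40 to 1.62), so some fragments may have been counted several times. A floor of 12 counts equals 0.163 to 0.198 CPM, covering counting error only. Positions came from GENCODE M21 on GRCm38.

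Genes were filtered with filterByExpr, scaled by TMM and tested in R 4.3.3 with the robust quasi-likelihood test of edgeR 4.0.16, with genotype as the term and Benjamini-Hochberg adjustment over 18375 genes. SE was taken as the size of the log2 fold change over the root of F. The interferon-stimulated genes, the pathway and marker lists and the tests were chosen with earlier results of these data known. Values in each library are given for Ddit4 and for up to 12 genes per direction past the threshold, and per role of the pathway list for at most 6 genes plus Ifnar1, Ifnar2, Tyk2, Jak1, Irf3 and Socs1. Some genes of that list are not reported here. Other genes given with values were named after these were seen. Alternatives were DESeq2 1.42.0 and limma 3.58.1 (voom), other scaling and filters, counts divided by 4, mitochondrial genes removed, a replicate block, a stricter threshold and leaving out each library. No promoter was compared for 10 genes without a matching entry.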

Additional observations from a re-analysis of the deposited data

How the results depend on the processing

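The number of interferon-stimulated genes that were higher ranged from 7 to 11 over the 16 alternatives and their median log2 fold change from 0.44 to 0.74. The number lower was 2 at an adjusted p below 0.01 and ranged from 3 to 6 with 1 library left out. It was 3 without wild-type library 1 or 3 or without any 1 knockout library, and 6 without wild-type library 2. In the pathway list, 15 genes were higher and 2 lower at an adjusted p below 0.01, and 10 were lower with DESeq2. With 1 library left out, 19 to 38 were higher (19 without knockout library 1) and 3 to 6 lower (3 without wild-type library 3 or knockout library 2). The cause was not tested. Of the single-gene values, 589 kept their side of the threshold, 26 lost it and 6 gained it. No gene past the threshold changed sign. Among genes that did not pass, the sign changed in some fits for Bst2 (-0.17 to 0.71), Stat2 (-0.27 to 0.23), Oas2 (-1.37 to 0.16), Ifi27l2a (-1.82 to 0.21) and Eif2ak2 (-0.29 to 0.01). Removing mitochondrial genes left 10 higher and 5 lower. Dividing counts by 4 gave the same counts. Chromosome-wide shifts, marker genes of other cells and the sex of the cells were not modelled, and with 3 libraries a group genes near the threshold rest on single libraries.

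Replicate numbers did not pair the samples. Deviations of same-numbered libraries correlated at -0.165, -0.194 and -0.0495. With the replicate block, 7 interferon-stimulated genes were higher and 2 lower, and in the pathway list 19 were higher and 3 lower. The genes past the threshold without the block but not with it were Irf1, Oasl2, Trim30a, Irf9, Isg20 and Ifih1.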
